A study of Mus musculus with 10 samples.

Results

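The 10 genes described here encode macrophage cytokines with inflammatory or anti-inflammatory roles, all outside the IL-1 family, and were followed in myeloid cells of tumor-bearing mice. The genes are Tnf, Il6, Il10, Il12b, Il15, Il23a, Il27, Osm, Lif and Tgfb1. The members were the rows of the count table whose Ensembl identifier has one of these symbols in the GRCm38 annotation, which gave 10 genes of the 55421 in the table. All 10 are protein coding, and each had counts in every one of the 10 libraries.

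RNA sequencing was done on spleen MDSC, the immature myeloid cells that expand in tumor-bearing animals, and on TAM, the macrophages of the tumor. Both came from mice carrying MC17-51 fibrosarcomas, a transplanted mouse tumor line, on day 15 after implantation. Shp2f/f mice carry loxP-flanked Ptpn11, the gene of the phosphatase SHP-2, and no Cre, whereas Shp2f/fLysMcre mice carry the same floxed gene with Cre at the lysozyme M locus, which is active in macrophages, monocytes and neutrophils alike. There were 2 libraries of each genotype in MDSC and 3 of each genotype in TAM. The methods describe the MDSC as Gr1-high Ly6G+ Ly6C- cells taken with magnetic beads and the TAM as live CD45+ CD11b+ F4/80+ Ly6G- cells taken by sorting, both from the same mice. The labels do not say which libraries shared a mouse or whether a library pooled mice, so the p-values measure the spread between libraries. Total counts were 33262119 to 36541823 in MDSC and 28844660 to 38222998 in TAM. Levels are given as CPM, counts scaled to the size of the library, after scaling by the trimmed mean of M-values over all 10 libraries.

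TNF is a trimeric ligand that is made on the membrane and cut free, and it drives inflammation through a pair of receptors. IL-6, OSM, LIF and the complete IL-27 belong to the family of cytokines that signal through gp130 (Il6st), IL-12 and IL-23 share the subunit encoded by Il12b, and IL-15 is shown to T and NK cells on its own receptor chain. IL-10 and TGF-β1 restrain macrophages and T cells, and TGF-β1 is stored in a latent form. Many of these mRNAs are short lived, because AU-rich stretches in their 3′ untranslated regions are recognized by proteins such as the tristetraprolin family.

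In GRCm38, Tnf (ENSMUSG00000024401) lies at chr17:35199381-35202007 on the minus strand. The gp130 ligand genes are Il6 (ENSMUSG00000025746) at chr5:30013114-30019981, Osm (ENSMUSG00000058755) at chr11:4236420-4241026 and Lif (ENSMUSG00000034394) at chr11:4257557-4272514, all on the plus strand. Il12b (ENSMUSG00000004296) lies at chr11:44400063-44414033 on the plus strand, and Il23a (ENSMUSG00000025383) at chr10:128296139-128298752, Il27 (ENSMUSG00000044701) at chr7:126589010-126594941 and Il15 (ENSMUSG00000031712) at chr8:82331632-82403222 on the minus strand. Il10 (ENSMUSG00000016529) at chr1:131019845-131024974 and Tgfb1 (ENSMUSG00000002603) at chr7:25687002-25705077 lie on the plus strand.

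The AU-rich stretches are shown because they are the sequence feature that most of the 10 genes share. The heptamer TATTTAT, the DNA form of the motif recognized by the tristetraprolin family, was searched on the transcript strand of the 3′ untranslated region of each gene's principal transcript, with overlapping matches counted. It occurred in 8 of the 10 genes, against 28.5% of 12464 genes tested in TAM, and at least 3 times in 6 of the 10, against 3.67%. Il15 and Tgfb1 had 0 matches. Tnf had 8, Il23a and Lif 5 each, Il10 and Il27 4 each, Osm 3, and Il6 and Il12b 1 each. The 30 bases with the most matches are printed in transcript direction from the GRCm38 genome, with the heptamers in capitals. They lie at chr17:35199677-35199706 (minus strand) for Tnf, chr5:30019728-30019757 for Il6, chr11:4240945-4240974 for Osm, chr11:4270477-4270506 for Lif, chr11:44413478-44413507 for Il12b, chr10:128296179-128296208 (minus strand) for Il23a, chr7:126589087-126589116 (minus strand) for Il27 and chr1:131024385-131024414 for Il10.
Tnf: TATTTATTATTTATTTATTATTTATTTATt
Il6: tttatgattgaTATTTATtatttttatgaa
Osm: ttttaTATTTATaaggccTATTTATaatgt
Lif: gtcTATTTATtactatgtccTATTTATatt
Il12b: agtaatttatgTATTTATtaatttatttct
Il23a: tgatggtTATTTATtcTATTTATaaggaat
Il27: gaTATTTATttcttggaTATTTATTTATtt
Il10: tctctccgaaaTATTTATtacctctgatac
A match is a description of the sequence and not a measured binding site.

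The cells were checked against their labels. Ptpn11 was 120.9 to 125.2 CPM in TAM Shp2f/f and 50.9 to 54.2 CPM in TAM Shp2f/fLysMcre, and 99.2 to 113.2 against 79.7 to 94.8 CPM in MDSC. The difference passed in TAM and not in MDSC (edgeR quasi-likelihood, adjusted p = 2.96e-09 and 0.361). Ly6g, the defining transcript of the MDSC gate, was at 8.92 to 33.2 CPM in MDSC and at most 0.287 CPM in TAM. The MDSC libraries also held Ly6c2, at 476.3 to 576.7 CPM, and Csf1r, at 1031 to 1442 CPM, which are monocyte transcripts that a Ly6C- gate would leave out. The summed level of 10 neutrophil and MDSC markers was 9531 to 9777 CPM in MDSC Shp2f/f and 25432 to 30616 CPM in MDSC Shp2f/fLysMcre, with 6 of the 10 called higher. Erythroid markers were also higher there, with 7 of 10 called higher and 1 lower and a summed level of 394.2 to 442.3 CPM against 744.4 to 949.4 CPM, while 6 monocyte markers summed to 8253 to 8445 CPM against 5534 to 7571 CPM with 0 called. One library, MDSC Shp2f/fLysMcre replicate 2, stood apart with 648.3 CPM over 12 fibroblast and fibrosarcoma markers, against 10.5 to 29.3 CPM in the other 3 MDSC libraries. In TAM the summed level of 10 macrophage markers was 7920 to 8317 CPM in Shp2f/f and 11578 to 12568 CPM in Shp2f/fLysMcre, and 9 of these markers were called higher and 1, Cx3cr1, lower. Islet hormone transcripts were at 843.2 to 6556 CPM in TAM Shp2f/f and at most 80.6 CPM in TAM Shp2f/fLysMcre.

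The first comparison asked how the cytokine genes differed with SHP-2 deletion in TAM. Of the 10 genes, 7 rose in Shp2f/fLysMcre TAM (Il23a, Osm, Il27, Tgfb1, Il15, Tnf and Il10), 1 fell (Lif), and 2 were not called (Il6 and Il12b). The rises were 1.22-fold to 1.73-fold. They took in ligands of both kinds, since the inflammatory Tnf, Il23a and Osm rose together with Il10 and Tgfb1. Over all 14446 genes tested in TAM, 50.2% were called (edgeR quasi-likelihood, adjusted p under 0.05), 23.9% higher and 26.3% lower, and the median log2 difference was -0.01, against a median of 0.34 over the 10 cytokine genes. With total-count scaling in place of TMM, the calls over all genes split into 2342 higher and 5227 lower in place of 3452 and 3805, and the median moved to -0.11, while the 8 called cytokine genes kept their direction and call. The libraries of the genotypes did not overlap for 8 of the 10 genes, as for 57.9% of all genes. In bulk RNA, more cells of a type and more RNA per cell cannot be told apart. The macrophage and islet transcripts given above moved with genotype beside these rises. So did the neutrophil and MDSC markers, with 5 of 9 called higher and 0 lower and a summed level of 300.4 to 317.9 CPM in TAM Shp2f/f and 482.8 to 510.4 CPM in TAM Shp2f/fLysMcre. The part of these cells in the rises was not tested.

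**Figure D1:**
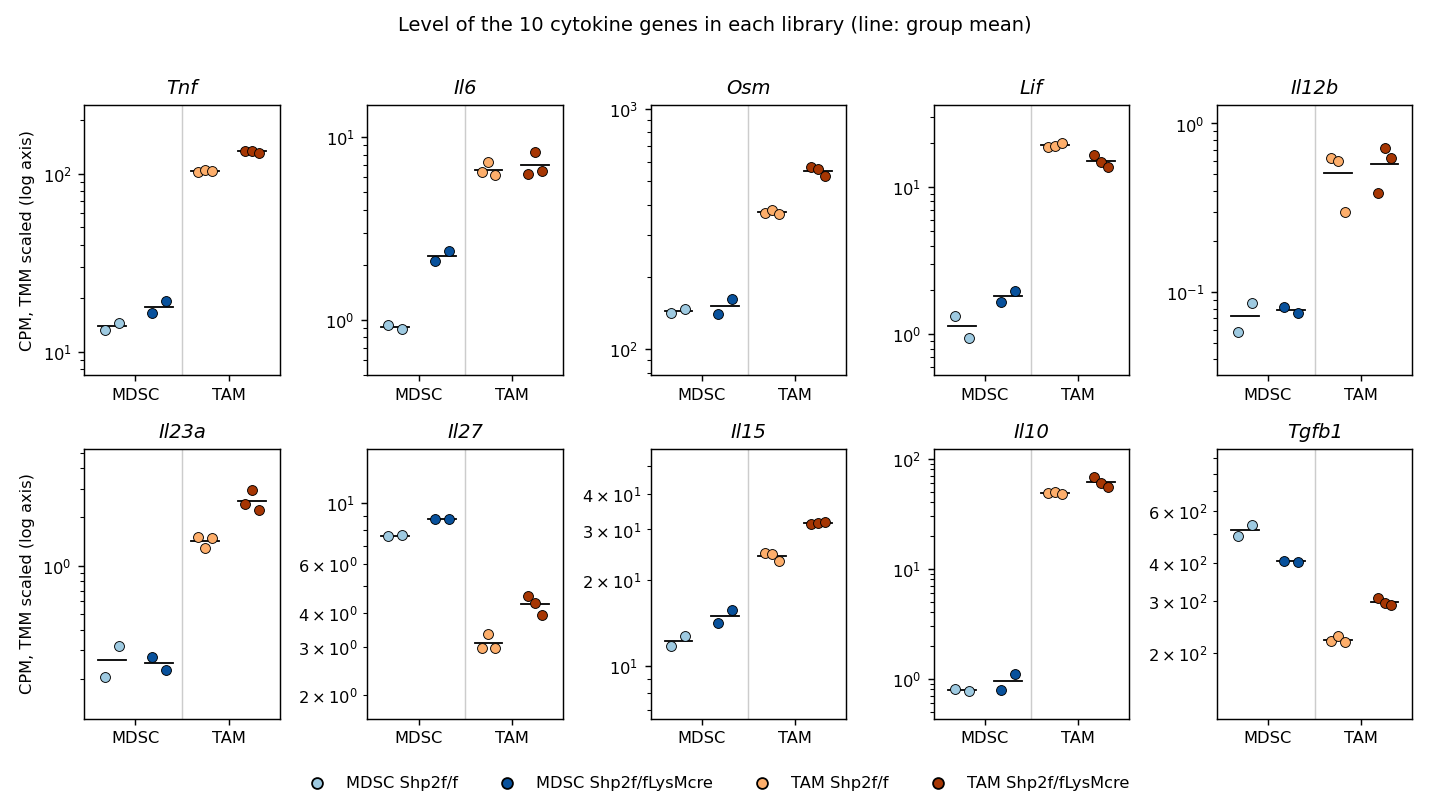
Level of each cytokine gene in each library as CPM (TMM scaled, log axis), with 1 point per library, the groups in the order MDSC Shp2f/f, MDSC Shp2f/fLysMcre, TAM Shp2f/f and TAM Shp2f/fLysMcre, and a line at each group mean. Il10 is near 1 CPM in MDSC and at 48.2 CPM or more in every TAM library, while Tgfb1 and Il27 are lower in TAM than in MDSC.

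Tnf was 102.1, 104.6 and 104.2 CPM in TAM Shp2f/f and 134.9, 135.3 and 131.3 CPM in TAM Shp2f/fLysMcre. Every Shp2f/fLysMcre library was above every Shp2f/f library, and the replicates of a genotype lay close together. The log2 difference was 0.33 (SE 0.0346, edgeR quasi-likelihood, adjusted p = 1.31e-05), a 1.26-fold rise. In MDSC, Tnf was 13.3 and 14.4 CPM in Shp2f/f and 16.6 and 19.2 CPM in Shp2f/fLysMcre. The genotypes did not overlap there either, but the log2 difference of 0.36 (SE 0.133) was not called (edgeR quasi-likelihood, adjusted p = 0.229). It was 0.43 without MDSC Shp2f/fLysMcre replicate 1, 0.26 without replicate 2, and 0.30 and 0.42 without MDSC Shp2f/f replicate 1 and replicate 2. The difference between the TAM and MDSC values was 0.00 (SE 0.112).

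Among the gp130 ligands, Osm, a macrophage and neutrophil product, had the highest level per kilobase of exon of the 10 genes in TAM. It was 369.7, 380.0 and 365.6 CPM in TAM Shp2f/f and 574.8, 563.3 and 523.6 CPM in TAM Shp2f/fLysMcre. The genotypes were far apart for Osm, and its log2 difference of 0.54 (SE 0.0412, edgeR quasi-likelihood, adjusted p = 1.31e-06) was the largest among the members with more than 10 CPM in TAM. In MDSC, Osm was 142.2 and 147.1 CPM in Shp2f/f and 140.7 and 161.7 CPM in Shp2f/fLysMcre, so the genotypes overlapped. Its log2 difference in MDSC was 0.06 (SE 0.119, edgeR quasi-likelihood, adjusted p = 0.863) and was -0.04 without MDSC Shp2f/fLysMcre replicate 2.

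Lif, which keeps stem cells undifferentiated and acts through LIFR and gp130, went the other way. It was 18.7, 19.1 and 19.995 CPM in TAM Shp2f/f and 16.5, 14.8 and 13.6 CPM in TAM Shp2f/fLysMcre. Each library with the deletion was below each control library, and the log2 difference was -0.40 (SE 0.0698, edgeR quasi-likelihood, adjusted p = 0.000637). Lif was the only one of the 10 genes called lower in TAM under the 13 alternative settings and in the reported fit. In MDSC, Lif was 1.34 and 0.953 CPM in Shp2f/f and 1.65 and 1.98 CPM in Shp2f/fLysMcre. That difference, 0.66 (SE 0.305), was not called (edgeR quasi-likelihood, adjusted p = 0.328), and it rests on 33 to 79 counts per library. It was 0.92 without MDSC Shp2f/f replicate 1 and 0.43 without MDSC Shp2f/f replicate 2. Osm and Lif are neighbors on the same strand of chromosome 11, 16530 bases apart, and moved in opposite directions in TAM.

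Il6, an acute-phase and fever cytokine, did not differ beyond its spread in TAM. It was 6.46, 7.27 and 6.17 CPM in TAM Shp2f/f and 6.24, 8.29 and 6.51 CPM in TAM Shp2f/fLysMcre. The genotypes overlapped, the log2 difference was 0.05 (SE 0.115, edgeR quasi-likelihood, adjusted p = 0.761), and it was -0.09 without TAM Shp2f/fLysMcre replicate 2 and -0.05 with total-count scaling. In MDSC, Il6 was 0.929 and 0.895 CPM in Shp2f/f and 2.09 and 2.38 CPM in Shp2f/fLysMcre, from 31 to 95 counts per library. The log2 difference of 1.28 (SE 0.265), which is 2.43-fold, was the largest of the members in MDSC but missed the threshold (edgeR quasi-likelihood, adjusted p = 0.0666, unadjusted p = 0.00364). Without MDSC Shp2f/fLysMcre replicate 2, the library with the fibroblast markers, it was 1.19. Leaving out MDSC Shp2f/fLysMcre replicate 1, so that only the library with the fibroblast markers stays in the group, gave 1.34. It was 1.31 and 1.25 without MDSC Shp2f/f replicate 1 and replicate 2. Each of these fits leaves 1 library in a group, so no call is drawn from them.

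Il12b, the subunit shared by IL-12 and IL-23, had the lowest level per kilobase of exon of the 10 genes in all 4 groups. It was 0.622, 0.60 and 0.30 CPM in TAM Shp2f/f and 0.388, 0.713 and 0.625 CPM in TAM Shp2f/fLysMcre, from 11 to 24 counts per library. Whether a difference of the size seen in the other members could be detected at this depth was not tested. The log2 difference of 0.15 (SE 0.355, edgeR quasi-likelihood, adjusted p = 0.757) turned to -0.11 without TAM Shp2f/f replicate 3 and to -0.04 without TAM Shp2f/fLysMcre replicate 2. In MDSC it had 2 or 3 counts per library and was not tested.

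Il23a, the subunit particular to IL-23, had the largest relative rise of the 10 genes in TAM. It was 1.51, 1.28 and 1.47 CPM in Shp2f/f and 2.39, 2.94 and 2.21 CPM in Shp2f/fLysMcre. All Shp2f/fLysMcre libraries lay above all Shp2f/f libraries, with 49 to 99 counts per library, and the log2 difference was 0.79 (SE 0.183, edgeR quasi-likelihood, adjusted p = 0.00392). In MDSC, Il23a had 7 to 11 counts per library and was not tested between genotypes. The other partner of Il12b, the IL-12 subunit gene Il12a, was 0.235 to 0.327 CPM in TAM Shp2f/f and 0.147 to 0.388 CPM in TAM Shp2f/fLysMcre and was not tested in TAM.

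Il27 encodes the IL-27 subunit that pairs with the product of Ebi3. It was 2.96, 3.34 and 2.97 CPM in TAM Shp2f/f and 4.59, 4.34 and 3.93 CPM in TAM Shp2f/fLysMcre. The genotypes did not overlap and the log2 difference was 0.44 (SE 0.122, edgeR quasi-likelihood, adjusted p = 0.0113), but it was not called by the DESeq2 Wald test (0.45, adjusted p = 0.0681). Ebi3 rose alongside, with a log2 difference of 0.43 (SE 0.0636, edgeR quasi-likelihood, adjusted p = 0.000196), from 28.6 to 32.1 CPM to 38.1 to 45.3 CPM. Per kilobase of exon, the ratio of Il27 to Ebi3 in TAM was 0.115 ± 0.00460 (SD, n = 3) in Shp2f/f and 0.116 ± 0.000995 (SD, n = 3) in Shp2f/fLysMcre. In MDSC, Il27 was 7.58 and 7.68 CPM in Shp2f/f and 8.78 and 8.77 CPM in Shp2f/fLysMcre, a log2 difference of 0.20 (SE 0.147) that was not called (edgeR quasi-likelihood, adjusted p = 0.565).

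Il15, which sustains NK and memory CD8+ T cells, rose in TAM. It was 24.8, 24.6 and 23.4 CPM in Shp2f/f and 31.4, 31.5 and 32.0 CPM in Shp2f/fLysMcre. The replicates of a genotype were within 1.5 CPM of each other, and the log2 difference was 0.35 (SE 0.0458, edgeR quasi-likelihood, adjusted p = 8.01e-05). In MDSC, Il15 was 11.7 and 12.7 CPM in Shp2f/f and 14.1 and 15.6 CPM in Shp2f/fLysMcre, without overlap, and the log2 difference of 0.28 (SE 0.130) was not called (edgeR quasi-likelihood, adjusted p = 0.336).

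Il10, which dampens macrophage activation, was 48.7, 50.3 and 48.2 CPM in TAM Shp2f/f and 68.5, 60.1 and 55.8 CPM in TAM Shp2f/fLysMcre. The libraries with the deletion were all higher but more widely spread, and the log2 difference was 0.29 (SE 0.0646, edgeR quasi-likelihood, adjusted p = 0.00314). Tnf rose beside it, and the ratio of Il10 to Tnf per kilobase was 0.593 ± 0.0122 (SD, n = 3) in TAM Shp2f/f and 0.574 ± 0.0545 (SD, n = 3) in TAM Shp2f/fLysMcre, and the libraries overlapped. In MDSC, Il10 was near 1 CPM, with 27 to 44 counts per library. It was 0.813 and 0.779 CPM in Shp2f/f and 0.786 and 1.10 CPM in Shp2f/fLysMcre, and the log2 difference of 0.24 (SE 0.326, edgeR quasi-likelihood, adjusted p = 0.773) was -0.01 without replicate 2 of MDSC Shp2f/fLysMcre.

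Tgfb1 rose in TAM and was lower, without being called, in MDSC. It was 218.9, 228.6 and 217.3 CPM in TAM Shp2f/f and 306.4, 295.2 and 290.0 CPM in TAM Shp2f/fLysMcre, a log2 difference of 0.39 (SE 0.0386, edgeR quasi-likelihood, adjusted p = 9.61e-06). In MDSC it was 494.0 and 538.7 CPM in Shp2f/f and 407.9 and 404.9 CPM in Shp2f/fLysMcre. The genotypes were apart in both cell types but in opposite order, and the MDSC difference of -0.35 (SE 0.116) had an adjusted p of 0.186 (edgeR quasi-likelihood). With the DESeq2 Wald test it was -0.37 and called (adjusted p = 0.0271). It was -0.39 without MDSC Shp2f/fLysMcre replicate 1 and -0.34 without replicate 2. With MDSC Shp2f/f replicate 1 or replicate 2 left out, it was -0.42 and -0.29. Each fit with a library left out leaves 1 library in a group, so no call is drawn from it.

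In MDSC as a whole, 0 of the 8 cytokine genes tested were called, against 4.28% of 14806 genes, so the absence of calls lies near the background and is not a result about these genes. At an unadjusted p under 0.05 there were 3 (Il6, Tgfb1 and Tnf), against 19.3% of all genes. The DESeq2 Wald test called 1, beside 1216 of 27261 genes, and one fit of all libraries called 5, beside 2666 of 16581 genes. The number of calls also moved when an MDSC library was left out, as did the count over all genes. The libraries of the genotypes did not overlap for 6 of the 8, as for 48.9% of all genes tested. The neutrophil and erythroid markers moved with genotype in the same libraries, and their part in the MDSC differences was not tested.

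**Figure D2:**
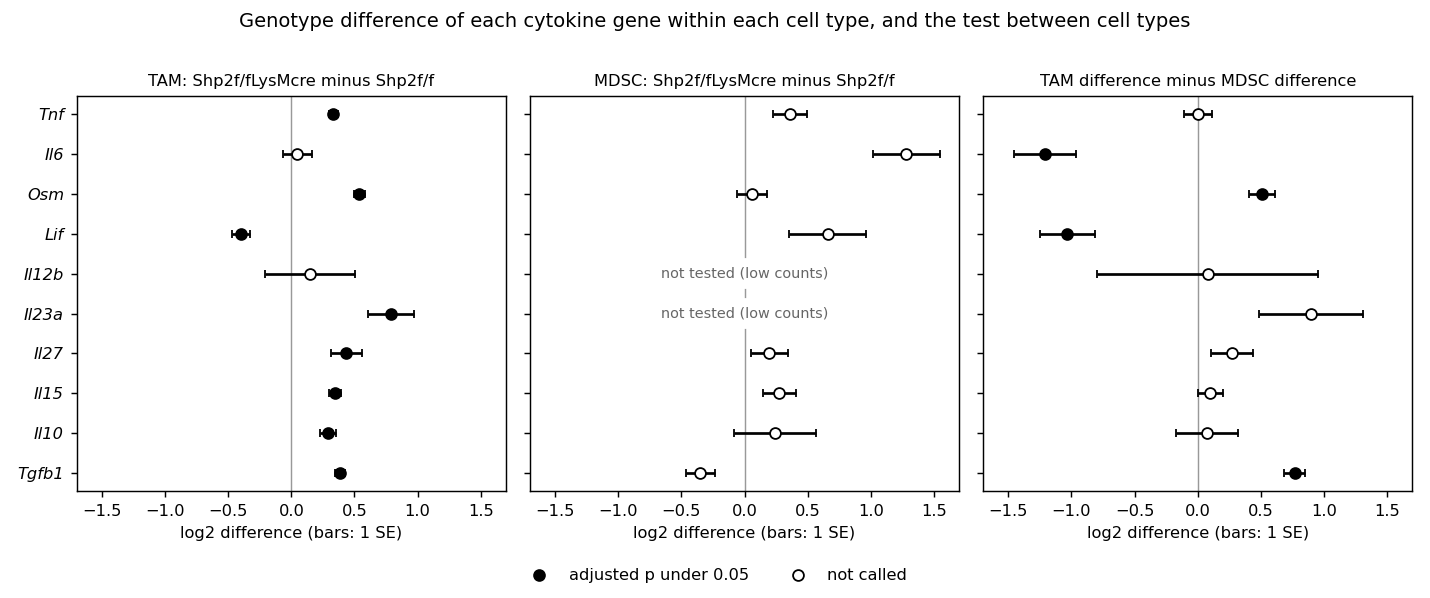
Log2 difference of each cytokine gene between Shp2f/fLysMcre and Shp2f/f in TAM (left) and MDSC (middle) and the difference between these values (right), with bars of 1 SE and filled points for an adjusted p under 0.05. In TAM 7 genes lie above 0 and Lif lies below it among the filled points, in MDSC no point is filled, and on the right Il6 and Lif lie below 0 and Osm and Tgfb1 above it. The right-hand values of Il12b and Il23a rest on at most 11 counts per MDSC library, and no result is drawn from them.

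Whether the genotype difference itself differed between TAM and MDSC was tested in one fit of all 10 libraries. Of the 8 genes that passed the filter in both cell types, 4 were called, 2 more positive and 2 more negative in TAM. Of 16581 genes tested, 24.9% were called, 12.2% more positive and 12.7% more negative in TAM, and total-count scaling turned that split of 2030 and 2102 genes into 1234 and 3132 and left the 4 calls in place. Tgfb1 had the smallest adjusted p, with a TAM difference above the MDSC difference by 0.77 on the log2 scale (SE 0.0844, edgeR quasi-likelihood, adjusted p = 0.000183). Osm followed with 0.51 (SE 0.102, edgeR quasi-likelihood, adjusted p = 0.00560). Those are the abundant genes of the 4. The low-count genes Il6 and Lif differed in the opposite sense, by -1.21 (SE 0.244, adjusted p = 0.00594) and -1.03 (SE 0.215, adjusted p = 0.00699, edgeR quasi-likelihood in each case). Voom with weights per cell type, which lets MDSC and TAM libraries have a spread of their own, kept Tgfb1 and Osm and no longer called Il6 (-1.20, adjusted p = 0.169) or Lif (-1.04, adjusted p = 0.156). The uncalled values of Tnf, Il10, Il15 and Il27 were between 0.00 and 0.27. Il12b and Il23a were left out of this count, since neither passed the filter in MDSC. The 24.9% covers all 16581 genes of the fit, whether or not they passed in both cell types.

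The cell types were then set side by side within each genotype, to place each cytokine gene in spleen MDSC or in tumor macrophages. The 8 genes that passed the filter on low counts in both cell types were called in both genotypes, 6 higher and 2 lower in TAM. Of all genes, 69.6% were called in Shp2f/f (35.1% higher and 34.6% lower) and 68.9% in Shp2f/fLysMcre (32.3% higher and 36.6% lower). These shares cover every gene of the fit, whether or not it passed the filter in both cell types. With total-count scaling the calls in Shp2f/fLysMcre split into 4297 higher and 7440 lower in place of 5354 and 6075, and the calls and directions of the 8 genes did not move. The organ, the isolation by beads or by sorting, and the cell type cannot be told apart in this contrast. Il10 had the largest excess in TAM of the 8 genes, at 61.4 times its MDSC level in Shp2f/f (log2 difference 5.94, SE 0.152, edgeR quasi-likelihood, adjusted p = 7.15e-10) and 64.6 times in Shp2f/fLysMcre. Lif was 16.8 times higher in TAM in Shp2f/f and 8.21 times in Shp2f/fLysMcre. Tnf was 7.48 times higher in each genotype. Il6 was 7.25 times higher in Shp2f/f and 3.14 times in Shp2f/fLysMcre. Osm and Il15 differed less, by 2.57 and 3.66 times for Osm and by 1.98 and 2.13 times for Il15. Tgfb1 and Il27 were the exceptions and were lower in TAM, with log2 differences of -1.22 and -1.30 in Shp2f/f and of -0.45 and -1.03 in Shp2f/fLysMcre (edgeR quasi-likelihood, adjusted p at most 8.06e-05). Il12b and Il23a passed the filter through TAM alone and are given as counts, with no fold or call. Il12b had 11 to 24 counts per TAM library and 2 or 3 per MDSC library, and Il23a had 49 to 99 and 7 to 11.

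**Figure D3:**
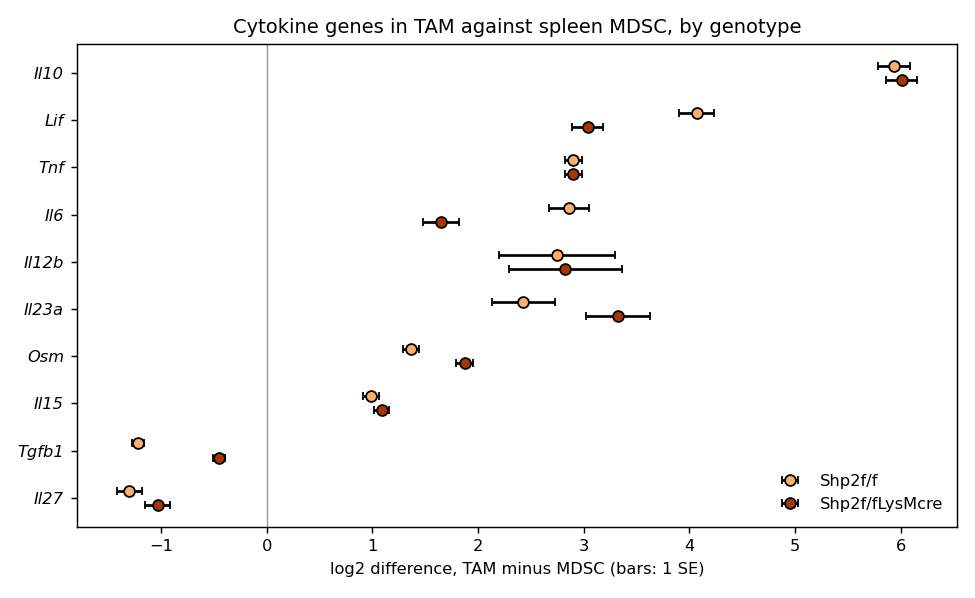
Log2 difference between TAM and spleen MDSC for each cytokine gene, in Shp2f/f (light) and Shp2f/fLysMcre (dark) mice, with bars of 1 SE and genes ordered by the Shp2f/f value. Il10 lies near 6 in both genotypes, and Tgfb1 and Il27 are the only genes below 0. The values of Il12b and Il23a rest on at most 11 counts per MDSC library. Both genes passed the filter through TAM alone, and no result is drawn from their points.

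To compare genes with each other, CPM was divided by the exon length in kilobases. In MDSC Shp2f/f the order was Tgfb1 (102.4 ± 6.27 CPM per kilobase, SD, n = 2), Osm (63.7 ± 1.53), Tnf (8.45 ± 0.50), Il27, Il15, Il10, Il6, Lif, Il23a and Il12b, and no neighbors in it overlapped. In MDSC Shp2f/fLysMcre, Il6 (0.920 ± 0.0857, SD, n = 2) stood above Il10 (0.721 ± 0.171), and their libraries did not overlap. The order in TAM Shp2f/f was Osm (163.6 ± 3.28, SD, n = 3), Tnf (63.2 ± 0.834), Tgfb1 (44.0 ± 1.21), Il10 (37.5 ± 0.841), Il15, Lif, Il27, Il6, Il23a and Il12b, in which only Il27 and Il6 overlapped. In TAM Shp2f/fLysMcre Il27 passed Lif, and Lif and Il6 overlapped. Tgfb1 led in MDSC and Osm led in TAM, in both genotypes.

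The summed level of the 10 genes was 330.1 ± 6.29 CPM per kilobase (SD, n = 3) in TAM Shp2f/f and 457.3 ± 19.7 in TAM Shp2f/fLysMcre, and 188.8 ± 8.63 against 175.5 ± 8.02 in MDSC (SD, n = 2 each). In TAM, Osm held 49.6% ± 0.137 of the sum in Shp2f/f and 53.3% ± 0.418 in Shp2f/fLysMcre, and Tnf held 19.2% ± 0.324 and 17.9% ± 0.519. Il10 held 11.4% ± 0.0446 and 10.2% ± 0.682 there, against at most 0.465% in any MDSC library. Tgfb1 held 54.2% ± 0.842 of the sum in MDSC Shp2f/f, 46.0% ± 2.34 in MDSC Shp2f/fLysMcre and about 13% in TAM (13.3% ± 0.113 and 12.9% ± 0.268).

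**Figure D4:**
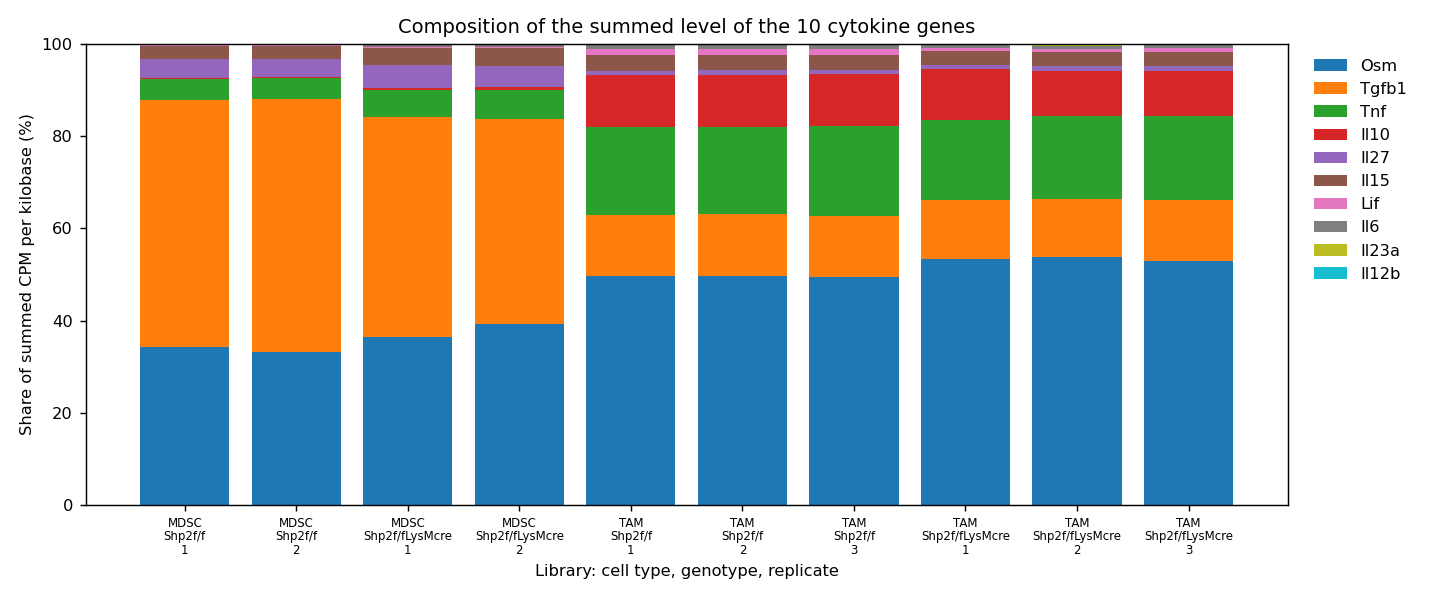
Share of each gene in the summed CPM per kilobase of the 10 cytokine genes, in percent, with 1 stacked bar per library. Tgfb1 takes the largest share in the MDSC bars and Osm in the TAM bars, and the Il10 and Tnf segments are wider in TAM.

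The receptor chains of these cytokines moved in both directions in TAM. Of 17 chains tested, 9 rose, 5 fell and 3 were not called, beside 50.2% called over all genes, and one fit of all libraries called 9 in place of 14. Those that rose most were Lifr, the LIF receptor chain, by 0.87 (SE 0.0653, from 22.6 to 24.4 CPM to 39.4 to 46.5 CPM), Tnfrsf1b, the second TNF receptor, by 0.51 (SE 0.0378), Il10ra by 0.43 (SE 0.0390) and Il15ra, which presents IL-15, by 0.41 (SE 0.0656), with adjusted p at most 0.000341 (edgeR quasi-likelihood). Lif itself fell and its receptor chain rose. The falls were led by Il2rb, the β chain through which T and NK cells sense IL-15, at 12.96 to 14.8 CPM in Shp2f/f and 4.75 to 5.14 CPM in Shp2f/fLysMcre (log2 difference -1.54, SE 0.0791, edgeR quasi-likelihood, adjusted p = 8.38e-08). The T and NK cell markers moved with Il2rb: 11 of 12 were called lower, among them Gzma (-1.88) and Prf1 (-1.71), and Cd4, which macrophages can also express, was called higher (1.56), while the summed level of the list was 40.2 to 41.7 CPM in Shp2f/f and 62.3 to 62.9 CPM in Shp2f/fLysMcre. Their part in the fall of Il2rb was not tested. The type I TGF-β receptor Tgfbr1 (-0.35), Il12rb2 (-0.49) and the OSM receptor Osmr (-0.34) also fell (edgeR quasi-likelihood, adjusted p at most 0.0482). In MDSC 0 of 17 chains were called in the reported edgeR fit. The DESeq2 Wald test called 1, the replicate block 4 and one fit of all libraries 6. Over all genes these settings called 1216, 2674 and 2666, against 633 in the reported fit. The interaction was called for 11 of 18 chains, 8 with the more positive difference in TAM, beside 24.9% and 12.2% of all genes. Lifr led the 8, at 1.39 (SE 0.127, edgeR quasi-likelihood, adjusted p = 6.05e-05). Of the 18 chains, 17 passed the filter on low counts in MDSC.

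Release of TNF and storage of TGF-β1 are controlled after transcription by other genes. Of 5 genes of TNF shedding, 4 were called in TAM, beside 50.2% of all genes, 3 under most alternatives and 1 with one fit of all libraries. Rhbdf2, which escorts the TNF-cutting protease in myeloid cells, rose by 0.32 (SE 0.0439) and the protease gene Adam17 by 0.16 (SE 0.0352), while Rhbdf1 fell by 1.004 on the log2 scale (SE 0.105) and the inhibitor Timp3 by 0.66 (SE 0.250). Of 13 genes of latent TGF-β storage and activation, 3 rose and 5 fell in TAM, beside 50.2% called over all genes. One fit of all libraries called 3 in place of 8. Nrros, which anchors latent TGF-β1 on myeloid cells, rose by 0.42 (SE 0.0407) and Thbs1, an activator, by 0.54 (SE 0.0253). Lrrc32, another anchor, rose by 0.96 (SE 0.243) from below 1 CPM, and the integrin chain Itgav fell by 0.72 (SE 0.0440), from 291.8 to 297.2 CPM to 171.6 to 188.7 CPM. The latent-TGF-β binding protein genes Ltbp1, Ltbp2 and Ltbp4 fell, by 0.58, 0.67 and 0.49. All of these had an adjusted p of at most 0.0469 (edgeR quasi-likelihood). None of either list was called in MDSC in the reported edgeR fit. The DESeq2 Wald test called 1 shedding gene and 2 storage genes, the replicate block 0 and 3, and one fit of all libraries 1 and 3. Over all genes these settings called 1216, 2674 and 2666, against 633 in the reported fit. With an MDSC library left out, its group holds 1 library, so calls of those settings are not counted here. Without Shp2f/fLysMcre replicate 1 that library is the one with fibroblast markers.

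Regulators of cytokine mRNA stability were changed in TAM for 9 of 12 genes, 6 higher and 3 lower, beside 50.2% called over all genes. Zfp36, which encodes tristetraprolin and speeds the decay of mRNAs with the heptamer shown above, was 1417 to 1471 CPM in Shp2f/f and 2615 to 2860 CPM in Shp2f/fLysMcre, a rise of 0.90 (SE 0.0344, edgeR quasi-likelihood, adjusted p = 1.09e-08). Its relative Zfp36l1 rose by 0.78 (SE 0.0394), and Rc3h2, which encodes a Roquin protein that promotes mRNA decay, rose by 0.34 (SE 0.0623). Arid5a, which stabilizes Il6 mRNA, rose by 0.74 (SE 0.0369), and Zc3h12c, of the Regnase family of mRNA-cutting proteins, fell by 0.53 (SE 0.0567). Elavl1 and Khsrp fell by 0.25 and 0.13. Of the 8 members that carry the heptamer, 5 rose in the same TAM libraries (Tnf, Osm, Il23a, Il27 and Il10), 1 fell (Lif) and 2 were not called. Over all genes tested in TAM, 23.9% were called higher and 26.3% lower. Il15 and Tgfb1, which do not carry it, also rose, by 0.35 and 0.39 on the log2 scale. A link between the heptamer, its regulators and these changes was not tested. For 5 of the 12 regulators the interaction was called, each with the more positive difference in TAM, beside 12.2% of all genes.

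Genes that act on Il10 or respond to IL-10 were called in TAM in 13 of 13 cases, 11 higher and 2 lower, beside 50.2% called over all genes. Maf, a transcription factor of the Il10 gene in macrophages, rose by 0.85 (SE 0.0474), from 201.5 to 227.8 CPM to 394.6 to 407.6 CPM. The IL-10 response genes Cd163, Il4ra and Socs3 rose by 1.33 (SE 0.0365), 0.83 (SE 0.0334) and 0.79 (SE 0.0348). Prdm1, which encodes Blimp-1, and Bhlhe40, a repressor of Il10, fell by 0.58 (SE 0.0373) and 0.37 (SE 0.0397). Each of these had an adjusted p of at most 1.85e-05 (edgeR quasi-likelihood). The median log2 difference of the 13 genes was 0.39, against -0.01 for all genes. In MDSC the median was -0.31 with 0 calls in the reported edgeR fit. The DESeq2 Wald test called 4, the replicate block 5 and one fit of all libraries 6. Over all genes these settings called 1216, 2674 and 2666, against 633 in the reported fit. The interaction was called for 10 of 13, beside 24.9% of all genes. Cd163 and Maf are also expressed by resident macrophages at large, the macrophage markers rose in the same TAM libraries, and their part in these rises was not tested.

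Other cytokines of the same families added 9 rises and 1 fall among 19 tested in TAM, a share near the 50.2% called over all genes. Gdf15, a stress-induced TGF-β relative, rose most, from 2.93 to 3.38 CPM to 10.9 to 12.8 CPM (log2 difference 1.84, SE 0.0963, edgeR quasi-likelihood, adjusted p = 8.99e-08). The TNF family ligands Tnfsf14 (LIGHT), Tnfsf9 (4-1BB ligand) and Tnfsf13b (BAFF) rose by 0.92 (SE 0.0556), 0.78 (SE 0.0492) and 0.64 (SE 0.220), and Tnfsf8 (CD30 ligand) fell by 0.34 (SE 0.113). With the DESeq2 Wald test, without a filter on low counts or without TAM Shp2f/f replicate 1, 6 genes of this list were called in place of 10, and 5 with one fit of all libraries. Tnfsf13b was the one gene of all 7 lists called in MDSC in the reported fit. It was at 5.57 and 6.51 CPM in Shp2f/f and 13.5 and 13.6 CPM in Shp2f/fLysMcre (log2 difference 1.16, SE 0.154, edgeR quasi-likelihood, adjusted p = 0.0238). It was no longer called when either MDSC Shp2f/f library was left out.

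**Figure D5:**
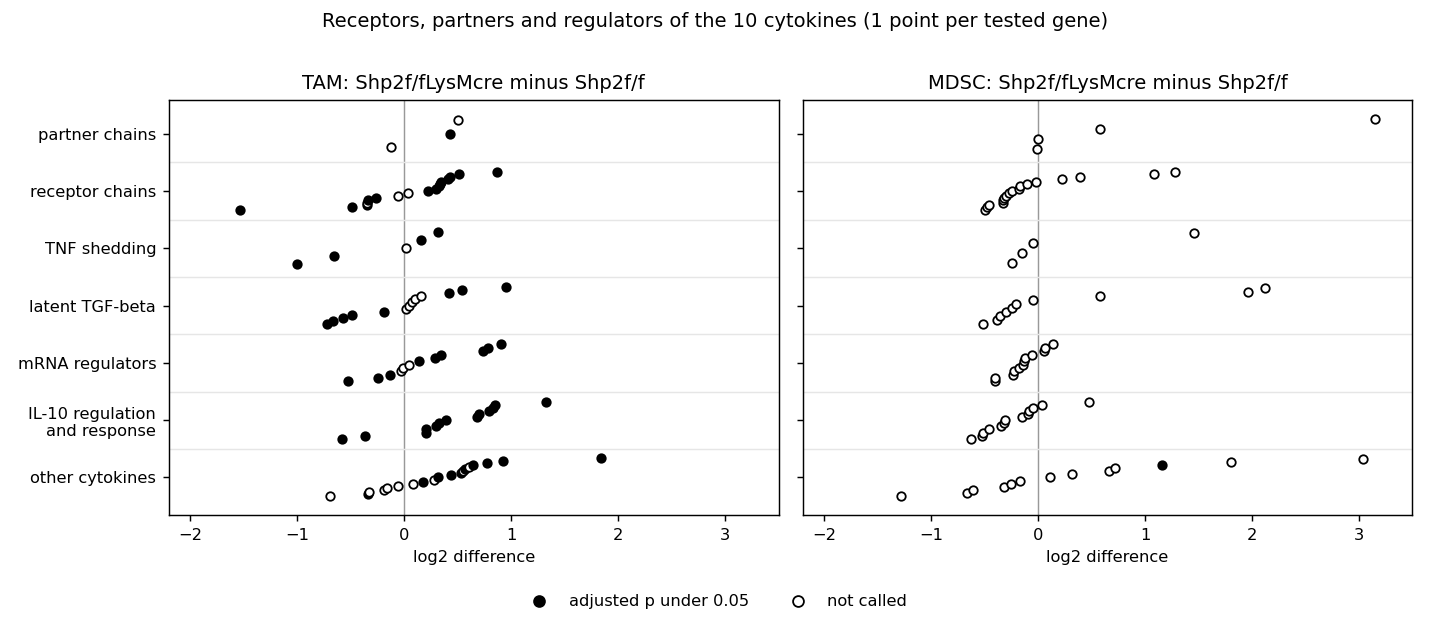
Log2 difference between Shp2f/fLysMcre and Shp2f/f in TAM (left) and MDSC (right) for each tested gene of 7 lists of receptors, partners and regulators, with filled points for an adjusted p under 0.05. In TAM most points of the IL-10 list are filled and lie above 0, and in MDSC the only filled point is Tnfsf13b.

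The genes most like each member over the 10 libraries were found among 8846 genes averaging 10 CPM or more. The measure was the root mean square distance between log2 CPM values, with 0.1 CPM added and each gene's mean subtracted. Il12b and Il23a did not pass the filter on low counts in MDSC and were left out here. The closest to Tnf were Sdc3 (0.0735), Vat1 (0.104) and Abcc3 (0.119). Osm was closest to the glycolytic gene Pfkl (0.0793), the lysosomal protease gene Ctsd (0.0853) and the ferritin gene Fth1 (0.0874), and Il10 to Htra1 (0.149) and the activation marker Cd83 (0.208). The closest gene to Il15 was Sept8 (0.0644) and to Il6 Cdc42bpg (0.176). Lif was closest to Sema7a (0.127) and the IL-33 receptor gene Il1rl1 (0.142), Tgfb1 to Lbh (0.0581) and Il27 to Jaml (0.0650). The 10 points span both cell types, so the distances include the difference between MDSC and TAM.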

How the data were processed

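The authors isolated RNA from spleen MDSC and TAM, made stranded poly(A) libraries from 400 ng of RNA, sequenced paired 42-nt reads, trimmed them with Cutadapt 2.5, aligned them to GRCm38 with STAR 2.7.3a and counted genes with featureCounts (Subread). They deposited raw counts, whole numbers of reads per Ensembl gene that are not normalized. How strand and multiply aligned reads were treated is not given in the sources used here. A second deposited table, the counts divided by DESeq2 size factors, was not used. Groups and replicate numbers came from the sample titles. Symbols, coordinates and exon lengths came from GENCODE M21 (GRCm38), which matched 99.52% of the identifiers.

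The quasi-likelihood F test of edgeR 4.0.16 (R 4.3.3) was applied to the counts (TMM scaling, filterByExpr with a minimum count of 10, Benjamini-Hochberg adjustment over all genes tested, call at an adjusted p under 0.05), for genotype in TAM and in MDSC apart and for the interaction and the cell types in one fit of 10 libraries. SE was the log2 difference divided by the square root of F. The biological coefficient of variation was 0.0595 in TAM and 0.189 in MDSC. The fits were tested on simulated data. Replicate counts differed by 4.63 to 64.5 chi-square units per degree of freedom, so no library had been deposited more than once.

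The 10 members and the lists beside them were chosen with earlier results of these data known. Every member was named, and from each list the 4 largest called rises and the 4 largest called falls in each cell type. These genes had a mean of at least 1 CPM over the libraries of that cell type. Alternatives were the DESeq2 1.42.0 Wald test, DESeq2 size factors, total-count scaling, no filter or a minimum count of 50, a replicate block, one fit of all libraries, voom with weights per cell type (limma 3.58.1) and each library left out. RefSeq promoters were given for 5 of the 10 members and not shown, since the data do not bear on them.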

Additional observations from a re-analysis of the deposited data

Results flagged for a closer look

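The genotype difference of 4 cytokine genes differed between TAM and MDSC in the test of the difference itself (edgeR quasi-likelihood interaction over 10 libraries). For Tgfb1 the TAM difference minus the MDSC difference was 0.77 on the log2 scale, with every Shp2f/fLysMcre library above every Shp2f/f library in TAM and below them in MDSC. For Osm it was 0.51, with no overlap of genotypes in TAM and overlap in MDSC. For Il6 it was -1.21, with overlap in TAM and no overlap in MDSC. For Lif it was -1.03, with Shp2f/fLysMcre lower in TAM and higher in MDSC in every library. Without MDSC Shp2f/fLysMcre replicate 2, the library with fibroblast transcripts, all 4 were called in the same directions. With voom and weights per cell type, Tgfb1 and Osm were called and Il6 (adjusted p = 0.169) and Lif (adjusted p = 0.156) were not.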

How the results depend on the processing

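In TAM the calls and directions of the 10 cytokine genes held under the alternatives, except that Il27 was not called by the DESeq2 Wald test and that the uncalled Il6 and Il12b changed sign. Il6 was -0.0504 with total-count scaling and ran from -0.0869 to 0.13 with a library left out, and Il12b ran from -0.11 to 0.37. One fit of all libraries called 4837 of all genes in TAM in place of 7257. In MDSC the count of cytokine genes called was 0 in the reported fit, 1 with the DESeq2 Wald test (Tgfb1), 1 with a minimum count of 50 (Il6), 2 with the replicate block (Il6 and Tnf) and 5 with one fit of all libraries, and ran from 0 to 3 with a library left out. Over all genes in MDSC the count was 633, against 1216 with the DESeq2 Wald test, 130 with no filter on low counts, 2674 with the replicate block and 2666 with one fit of all libraries, and it ran from 1 to 4406 with a library left out. A group left with 1 library was assumed to vary like the other group. The MDSC values of Il10 ran from -0.0149 to 0.42 and of Osm from -0.0358 to 0.12. For the interaction, voom with weights per cell type called 2 cytokine genes in place of 4, and the count over all genes, 4132, ran from 2446 to 7023. The uncalled interaction values of Tnf (-0.17), Il10 (-0.10), Il12b (-0.0908) and Il15 (-0.0735) were below 0 with total-count scaling, Tnf was -0.027 with a minimum count of 50, and with a library left out Tnf ran from -0.0945 to 0.11, Il10 from -0.14 to 0.34 and Il12b from -0.20 to 0.33. The cause of these changes was not tested. Whether equal replicate numbers pair the samples could not be decided. For equal numbers, deviations from the group means correlated from -0.0858 to 0.0626 in TAM and at 0.169 in MDSC. The MDSC value is 1 number and not 2, since deviations within a group of 2 libraries mirror each other. Pairing between MDSC and TAM libraries was not examined. The replicate block changed no call of the 10 genes in TAM, in the interaction or between the cell types. Il12b and Il23a had at most 11 counts per MDSC library, and no result is drawn from their comparison with MDSC. Their points in the figures are drawn only to show all members. The interaction values of Il12b above are given only to show how far they move.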
